A study of Homo sapiens with 7 samples.

Results

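The 36 genes described here carry out macroautophagy from its start to the meeting of the finished vesicle with the lysosome, and all 36 were measured above background in every bafilomycin A1 library. They were chosen by name, as gene symbols of non-control spots on the array, and not by a cut-off on a measured value. Earlier results of these data were known when the choice was made. They are 36 of 36337 gene names on the array and were read by 50 of 50599 probes, printed as 59 of 58717 spots. By role they fall into 10 genes of initiation, 7 of the conjugation of ATG12 and LC3, 7 of membrane supply and 12 of fusion with the lysosome.

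The cells were HCT116, a diploid human colon carcinoma line, here with green fluorescent protein fused to histone H2B. The 4 samples labelled replicates 1 to 4 were kept for 30 h in 10 nM bafilomycin A1, and 100 ng RNA of each was hybridised to a single-colour array. Bafilomycin A1 blocks the proton pump of the lysosome, so that the lysosome is no longer acidified and its load is not degraded. The labels describe medium with 10% serum, while the study's methods give a lower serum content for the treated cells. The 3 untreated H2B-GFP samples in the labels were not analysed here. Every value below therefore describes treated cells only, and no fold change against untreated cells and no p-value was computed. Nothing in the labels says that the replicates came from separate cultures. The study's methods give at least 3 independent biological replicates for all statistically evaluated experiments, without naming these arrays. The SDs may therefore still be partly technical. All 4 arrays lay on 1 slide. The number of arrays, not a read depth, limits the precision. Of the colon epithelial markers, 6 of 7 were above background on all 4 arrays, among them EPCAM at 8.84 ± 0.15 (SD, n = 4) and KRT19 at 11.81 ± 0.084 (SD, n = 4), while VIL1 was above background on 0 arrays. Of 9 markers of leukocytes, endothelium and fibroblasts, 6 were above background on all 4 arrays, with mean log2 signals between -0.93 for PTPRC and 2.91 for COL1A1.

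In macroautophagy a flat membrane grows around cytoplasm and closes into an autophagosome, which then fuses with a lysosome. The ULK kinase complex starts the process, and the class III phosphatidylinositol 3-kinase complex marks the growing membrane with its lipid. ATG9 vesicles and ATG2 lipid transfer feed the membrane, and ubiquitin-like reactions attach LC3 proteins to it. The closed vesicle takes up the SNARE protein syntaxin 17 and is tethered to the lysosome by RAB7 and the HOPS complex. Many genes of lysosomes and autophagy are known targets of the factor TFEB, which binds the DNA word known as the CLEAR element, an extended E-box.

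For that reason the promoters were searched for its core. RefSeq promoter sequences of GRCh38.p14, 250 bases before to 50 bases after the start, were at hand for 30 of the 36 genes and 27305 genes in all. The E-box CACGTG, which reads the same on both strands, was in the promoters of 5 of the 30 genes (16.7%) and in 7.43% of all promoters. The longer GTCACGTG, searched on both strands and always overlapping an E-box, was in the same 5 promoters (16.7%) and in 2.53% of all. The promoters of EPG5, VPS33A, UVRAG, STX17, RB1CC1 and VPS18 were not searched. The matches below are 30 bases on the gene's own strand, read 5′ to 3′, with the E-box or the longer word in capitals, and they show where the letters sit and not that a factor binds there.
ATG14, chr14:55411834-55411863, minus strand: aaaacaaaatccCACGTGACtggctctcct
ATG3, chr3:112561963-112561992, minus strand: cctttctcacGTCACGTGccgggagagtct
ATG3, chr3:112561940-112561969, minus strand: agagtctagtGTCACGTGaggccccggtgg
SNAP29, chr22:20858811-20858840, plus strand: cggctttcccgcCACGTGACctctcagttg
VPS11, chr11:119067750-119067779, plus strand: gaagctgccgacCACGTGattcgctggctc
VPS11, chr11:119067772-119067801, plus strand: gctggctcagctCACGTGACaaagctcccg
VPS16, chr20:2840667-2840696, plus strand: cggcggcctcgcCACGTGACccggacgggc
Each of the 3 steps of initiation, conjugation and fusion has a gene in this list, and membrane supply has none. In ATG3 and VPS11 the E-box stands at a pair of places, and at the upstream place in VPS11 it is not part of the longer word. No array measurement of untreated cells was set against these matches.

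Detection was called for a gene from any probe that the scanner software marked as well above background in each of the 4 files. All 36 genes were detected, against 54.2% of all gene names on the array. Of their 50 probes, 46 passed this mark on every array. The 4 others belong to ULK2, AMBRA1, ATG10 and EPG5, each of which had another probe above background, and 32 genes had all their probes above it. No spot of these genes was saturated or an outlier (0 spots). Each step of the pathway thus had genes above background, but this mark alone does not show that a dim gene is expressed. It was also set on all 4 arrays for the leukocyte genes PTPRC and CD3E, with means of -0.93 and -0.34, where ATG9B had a mean of -0.90. Both members of the paralog pairs ULK1 and ULK2, ATG2A and ATG2B, ATG9A and ATG9B, ATG16L1 and ATG16L2, and WIPI1 and WIPI2 were detected. ATG9B was close to the limit: on replicate 4 its probes read 1.29 and 1.35 times the dimmest signal still called well above background.

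Values are given as the log2 background-subtracted signal relative to the median of the array, for replicates 1, 2, 3 and 4 in that order, followed by mean and SD. A probe's brightness depends on its sequence as well as on its RNA, so levels of different genes were not ranked and each gene was compared with itself across arrays. The span is the ratio of the highest to the lowest array of a gene. The mark of 1.4-fold is taken from the study's methods, which apply it to ratios between aneuploid and diploid cell lines. Here it is set on single arrays of the same treatment, so a gene above it is not a changed gene in the study's sense. The values of all 36 genes are drawn by step in the plot of log2 signal.

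**Figure D1:**
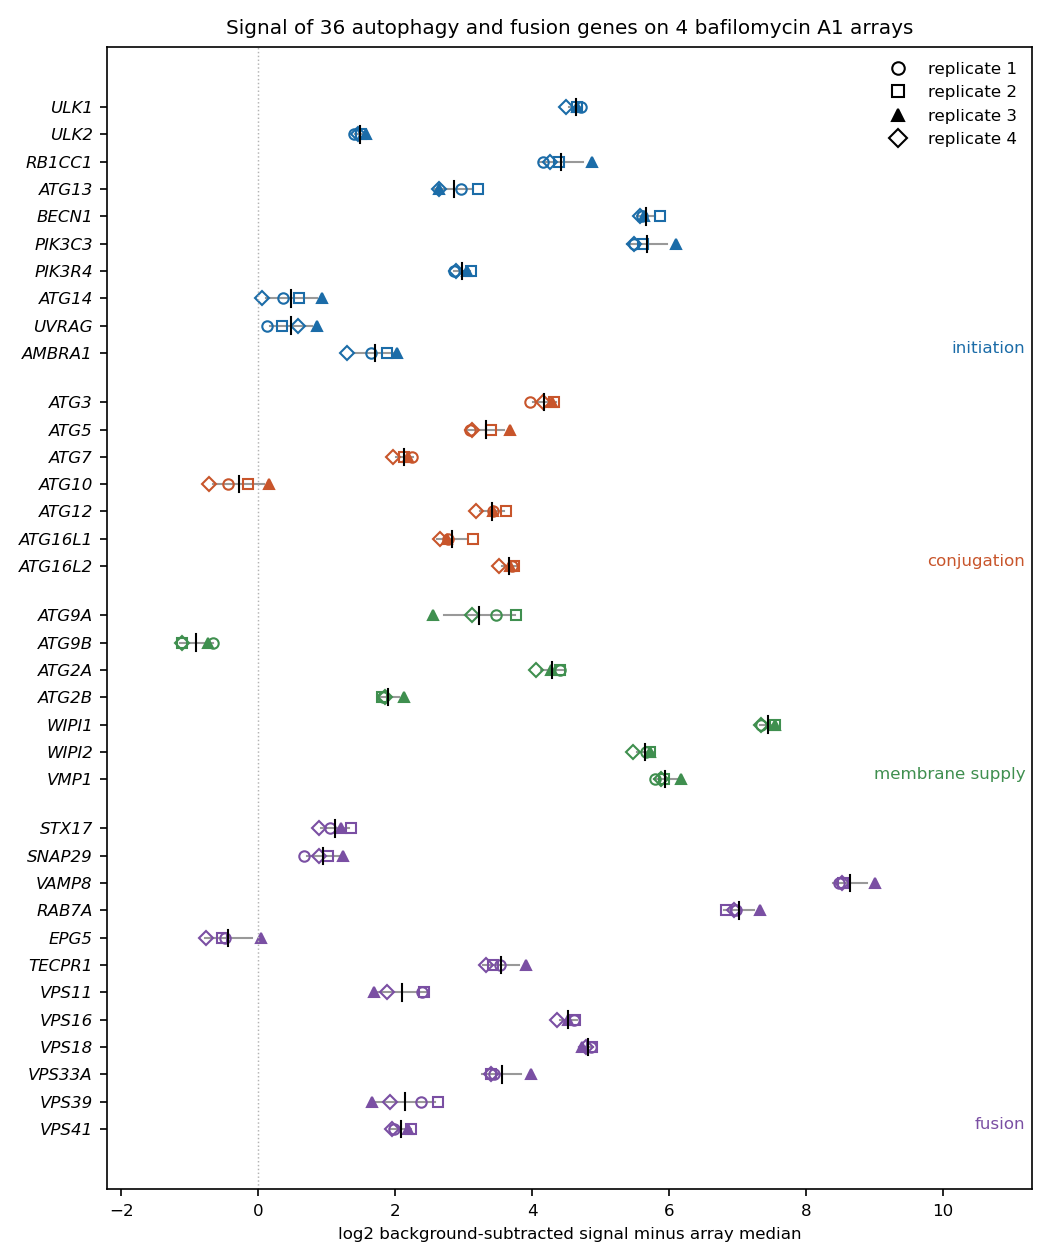
Log2 background-subtracted signal relative to the array median (x axis) for each of the 36 genes (y axis), coloured by step. The 4 symbols are the 4 bafilomycin A1 arrays, black bars are means and grey lines are 1 SD to each side. Replicate 3, the filled triangle, was the highest of the arrays in 16 genes and the lowest in 5, and ATG9A has the widest span.

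All members of the ULK complex were above background, and 2 of the 4 spanned more than 1.4-fold. ULK1, the kinase that receives nutrient signals, read 4.72, 4.66, 4.66 and 4.50 (4.64 ± 0.095, SD, n = 4). Its paralog ULK2 read 1.403, 1.496, 1.57 and 1.45 (1.48 ± 0.072, SD, n = 4). Its SD is that of a median over probes that lay on opposite sides of their means on replicate 3, with SDs of 0.23 and 0.10 of their own, and it was 0.18 with the processed signal and 0.28 with each array's own probes. In both kinases the arrays lay within 1.17-fold. RB1CC1, also called FIP200, the scaffold of the complex, read 4.16, 4.40, 4.88 and 4.26 (4.42 ± 0.32, SD, n = 4) and was highest on replicate 3. ATG13, the adaptor that binds the kinase to the scaffold, read 2.96, 3.21, 2.63 and 2.65 (2.86 ± 0.28, SD, n = 4) and was highest on replicate 2, with replicates 3 and 4 close together below. Its span was 1.489-fold and that of RB1CC1 1.65-fold.

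In the lipid kinase complex the catalytic subunit PIK3C3, also known as VPS34, read 5.49, 5.62, 6.11 and 5.49 (5.68 ± 0.29, SD, n = 4), with replicate 3 above the rest. BECN1, the scaffold Beclin 1, read 5.60, 5.86, 5.64 and 5.57 (5.67 ± 0.13, SD, n = 4). The regulatory subunit PIK3R4 read 2.86, 3.11, 3.05 and 2.89 (2.98 ± 0.12, SD, n = 4). These last subunits spanned 1.22-fold and 1.19-fold, whereas PIK3C3 spanned 1.54-fold. ATG14 directs the complex to the early membrane and read 0.36, 0.59, 0.93 and 0.05 (0.48 ± 0.37, SD, n = 4). UVRAG takes the place of ATG14 in the complex of later, endosomal steps, and it read 0.13, 0.35, 0.86 and 0.58 (0.48 ± 0.31, SD, n = 4). AMBRA1, a regulator that binds Beclin 1, read 1.65, 1.89, 2.02 and 1.29 (1.71 ± 0.32, SD, n = 4). ATG14, UVRAG and AMBRA1 all had replicate 3 highest, with spans of 1.84-fold, 1.66-fold and 1.66-fold. ATG14 and AMBRA1 were lowest on replicate 4, and UVRAG on replicate 1. The dimmer AMBRA1 probe was not above background on replicate 4. The brighter AMBRA1 probe deviated by -0.19, -0.06, 0.45 and -0.19 on the 4 arrays and spanned 1.56-fold, so it was as low on replicate 1 as on replicate 4. As a group the 6 genes of this complex lay at -0.15, 0.07, 0.27 and -0.19 from their own means on the 4 arrays. All detected genes lay 0.06 above on replicate 3 and 0.10 below on replicate 4. With normexp background correction and quantile normalization the 6 genes lay at 0.11 on replicate 3 and -0.04 on replicate 4. All detected genes then lay at -0.01 and 0.005.

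In the conjugation step the E1-like enzyme ATG7, which activates both ATG12 and LC3, read 2.25, 2.12, 2.19 and 1.97 (2.13 ± 0.12, SD, n = 4). ATG3, the E2-like enzyme that hands LC3 to the lipid, read 3.96, 4.31, 4.29 and 4.16 (4.18 ± 0.16, SD, n = 4). ATG10, the E2-like enzyme for ATG12, read -0.44, -0.14, 0.16 and -0.71 (-0.28 ± 0.37, SD, n = 4). By its gene value ATG10 had the widest span of the step at 1.83-fold, with replicate 3 highest and replicate 4 lowest. The dimmer ATG10 probe was not above background on replicate 4. The brighter ATG10 probe deviated by 0.08, 0.19, 0.04 and -0.31 on the 4 arrays and spanned 1.41-fold. By that probe alone replicate 2 was highest, and the span was narrower than that of ATG5. ATG12, the ubiquitin-like protein, read 3.43, 3.61, 3.44 and 3.18 (3.42 ± 0.18, SD, n = 4). ATG5, the protein it is joined to, read 3.09, 3.40, 3.68 and 3.12 (3.32 ± 0.28, SD, n = 4) and was highest on replicate 3. ATG16L1 brings the ATG12-ATG5 conjugate to the membrane and read 2.77, 3.14, 2.76 and 2.65 (2.83 ± 0.21, SD, n = 4), and its paralog ATG16L2 read 3.71, 3.74, 3.69 and 3.52 (3.66 ± 0.097, SD, n = 4). ATG5 and ATG10 were the 2 of 7 conjugation genes that spanned more than 1.4-fold. All 7 genes lay below their own mean on replicate 4.

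One probe of ATG5 was printed as 10 spots on each array, which allows the spread between arrays to be set against that within an array. The SD of its spots within an array averaged 0.23. Between arrays the SD was 0.23 to 0.29 for single spots and 0.25 for the mean over the 10 spots. That mean averages out part of the spread within an array, so its SD and that of single spots are unlike measures. All 10 of 10 spots were highest on replicate 3. These spots share 1 labelled RNA per array and are not replicates of the treatment.

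Membrane supply held the gene with the largest SD, but its median SD of 0.16 was the lowest of the steps. ATG9A, the transmembrane lipid scramblase of the seed vesicles, read 3.48, 3.77, 2.56 and 3.12 (3.23 ± 0.52, SD, n = 4), a span of 2.32-fold. Replicates 1 and 2 were high, replicate 4 lower and replicate 3 lowest. Its paralog ATG9B read -0.66, -1.11, -0.73 and -1.11 (-0.90 ± 0.24, SD, n = 4). The lipid transfer proteins ATG2A and ATG2B read 4.40, 4.42, 4.28 and 4.06 (4.29 ± 0.16, SD, n = 4) and 1.82, 1.80, 2.13 and 1.85 (1.90 ± 0.16, SD, n = 4). ATG2A was lowest on replicate 4 and ATG2B highest on replicate 3, which stood apart from the close values of the other arrays. WIPI1 and WIPI2 recognise the lipid made by the PI3-kinase. WIPI1 read 7.34, 7.54, 7.54 and 7.35 (7.44 ± 0.11, SD, n = 4) and WIPI2 read 5.66, 5.73, 5.72 and 5.47 (5.65 ± 0.12, SD, n = 4). VMP1, a scramblase of the endoplasmic reticulum, read 5.80, 5.93, 6.18 and 5.88 (5.95 ± 0.17, SD, n = 4). Apart from ATG9A the 6 genes stayed within a span of 1.37-fold.

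Among the fusion genes the SNARE proteins come first. STX17, on the autophagosome, read 1.05, 1.35, 1.21 and 0.88 (1.12 ± 0.20, SD, n = 4). Its partner SNAP29 read 0.66, 1.03, 1.24 and 0.89 (0.95 ± 0.24, SD, n = 4). VAMP8, on the lysosome, read 8.48, 8.54, 9.01 and 8.53 (8.64 ± 0.25, SD, n = 4). VAMP8 was alike on 3 arrays and higher on replicate 3, while SNAP29 was highest on replicate 3 and lowest on replicate 1. RAB7A, the small GTPase of late endosomes and lysosomes, read 6.98, 6.83, 7.33 and 6.95 (7.02 ± 0.22, SD, n = 4). EPG5, a tether that RAB7 recruits, read -0.48, -0.53, 0.04 and -0.76 (-0.43 ± 0.34, SD, n = 4). The dimmer EPG5 probe was above background on 0 arrays. The brighter EPG5 probe deviated by -0.14, -0.24, 0.50 and -0.12 on the arrays and spanned 1.67-fold. TECPR1, a tether that binds the ATG12-ATG5 conjugate, read 3.53, 3.42, 3.91 and 3.32 (3.55 ± 0.26, SD, n = 4). In RAB7A, EPG5 and TECPR1 alike replicate 3 was highest, and all 3 spanned more than 1.4-fold, from 1.42-fold to 1.74-fold.

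The 6 subunits of HOPS, the tethering complex of the lysosome, went different ways on replicate 3. VPS33A, the subunit that helps SNAREs assemble, read 3.45, 3.40, 3.99 and 3.40 (3.56 ± 0.29, SD, n = 4), with replicate 3 above 3 closely placed arrays. VPS39, which binds RAB7 at the end of the complex, read 2.37, 2.62, 1.67 and 1.93 (2.15 ± 0.43, SD, n = 4), and the core subunit VPS11 read 2.40, 2.42, 1.69 and 1.89 (2.10 ± 0.37, SD, n = 4). Both were lowest on replicate 3, where VPS39 lay 0.48 and VPS11 0.41 under their means (deviations of -0.48 and -0.41) and VPS33A lay 0.43 over its mean. VPS16, the partner of VPS33A, read 4.62, 4.63, 4.52 and 4.36 (4.53 ± 0.12, SD, n = 4). The core subunit VPS18 read 4.87, 4.88, 4.72 and 4.79 (4.82 ± 0.074, SD, n = 4), and VPS41, at the other end from VPS39, read 1.99, 2.24, 2.19 and 1.95 (2.09 ± 0.14, SD, n = 4). VPS16, VPS18 and VPS41 spanned 1.21-fold, 1.12-fold and 1.22-fold, so by these values the complex held both steady and variable genes of the pathway. With normexp background correction and quantile normalization the SDs of these genes were 0.144, 0.170 and 0.064. The median over the 36 genes was then 0.140, so only VPS41 stayed below it.

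Over all 36 genes, the median SD was 0.21 on the log2 scale, close to the 0.20 of all 19689 detected genes. A span above 1.4-fold was seen in 17 of 36 genes, against 43.1% of all detected genes, so the share among these genes was near that of the array as a whole. By step it was 6 of 10 in initiation, 2 of 7 in conjugation, 1 of 7 in membrane supply and 8 of 12 in fusion. The median SDs of these steps were 0.28, 0.18, 0.16 and 0.24. The steps differ in their probes, with 14 for initiation, 12 for conjugation, 11 for membrane supply and 13 for fusion. A median over probes that move opposite ways narrows the span of a gene. In ATG16L1 the probes spanned 1.41-fold and 2.07-fold and the gene 1.398-fold. The part of probe number in these counts and SDs was not tested. Genes are not replicates of a step, and the difference between steps was not tested. Without replicate 3 the median SD of the 36 genes fell to 0.155 (0.140 for all detected genes) and 7 genes spanned more than 1.4-fold (18.1% of all detected genes did), 3 in initiation, 1 each in conjugation and membrane supply, and 2 in fusion. Leaving out replicate 1, 2 or 4 instead left 15, 15 and 16 genes, against 6635, 6999 and 7042 of the 19689 detected genes. With normexp background correction and quantile normalization, which gives all arrays the same distribution, the median SD was 0.14 and 4 genes spanned more than 1.4-fold (14.1% of all detected genes did): ATG9A (2.05-fold), VPS39 (1.72-fold), VPS11 (1.58-fold) and ATG13 (1.45-fold). All 4 were above their mean on replicates 1 and 2 and below it on replicates 3 and 4 under both kinds of processing. Replicates 1 and 2 both lay above replicates 3 and 4 in 10 of the 36 genes, an order looked for after the values were seen, against 24.0% of all detected genes. With the array median taken over all probes this was so in 5 genes, and with normexp and quantile normalization in 14, against 19.9% of all detected genes.

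The steps were set against each other by the mean deviation of their genes from each gene's own 4-array mean. Initiation lay at -0.11, 0.08, 0.19 and -0.17 on replicates 1 to 4, conjugation at -0.07, 0.13, 0.13 and -0.20, membrane supply at 0.04, 0.07, 0.02 and -0.13, and fusion at -0.02, 0.06, 0.12 and -0.16. All detected genes lay at -0.01, 0.04, 0.06 and -0.10. Each step was thus lowest on replicate 4, as the array-wide mean was. On that array 35 of 36 genes lay below their own mean, UVRAG being the exception, as did 80.0% of all detected genes. The difference of fusion minus initiation ran from -0.08 on replicate 3 to 0.09 on replicate 1, and that of fusion minus conjugation from -0.07 on replicate 2 to 0.05 on replicate 1. These differences sum to 0 over the arrays by construction, so only their size can be read. The SD of the step mean over the arrays was 0.17 in initiation, 0.16 in conjugation, 0.092 in membrane supply and 0.12 in fusion. After normexp and quantile normalization these SDs were 0.041, 0.048, 0.077 and 0.033, and the order of arrays changed: initiation was lowest on replicate 1, at -0.042, and membrane supply on replicate 3, at -0.10, while the array-wide mean on replicate 4 was 0.005.

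**Figure D2:**
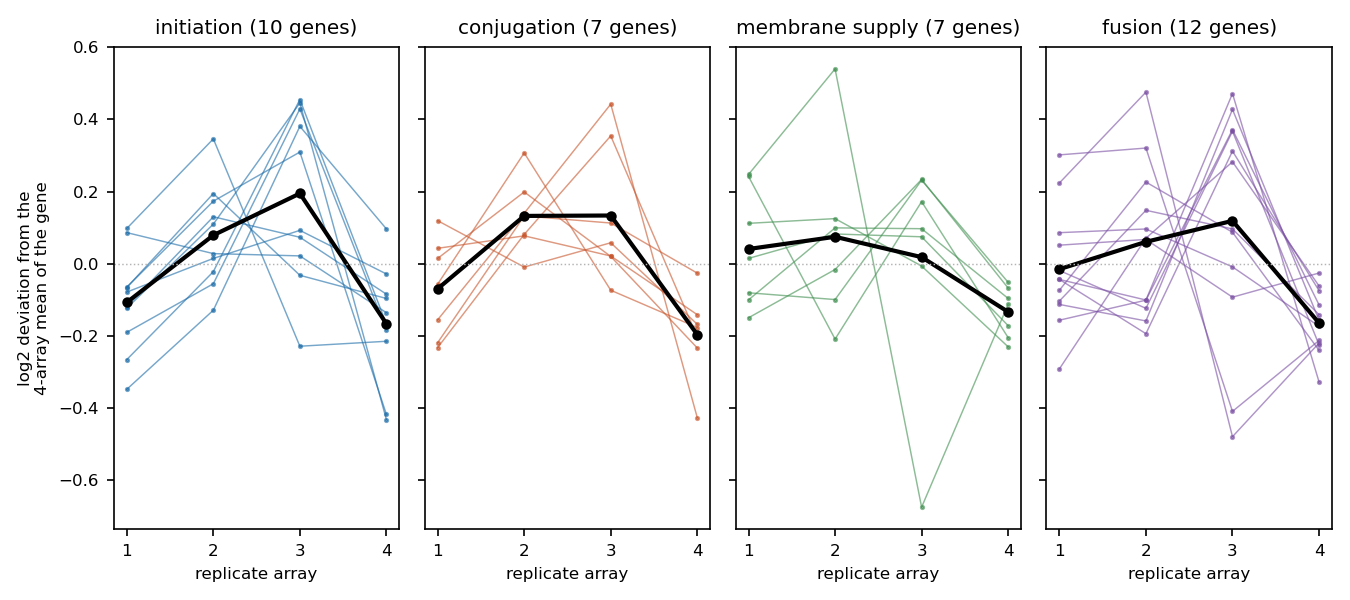
Deviation of each array from the 4-array mean of the gene (y axis, log2) on the 4 replicate arrays (x axis), in a panel per step. Thin lines are genes and the thick black line is the mean over the step. All 4 step means are lowest on replicate 4, and on replicate 3 single genes run from -0.67 for ATG9A to 0.47 for EPG5.

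Replicate 3 lay far from the other arrays in many genes, in both directions. It was the highest array in 16 of 36 genes and the lowest in 5, which were ATG13, ATG9A, VPS11, VPS18 and VPS39. Over all detected genes it was the highest in 48.8% and the lowest in 23.3%, so the counts here were no larger than the share on the whole array. By Dixon's ratio 1 array stood apart from the others in 3 of 36 genes, ATG2B, VAMP8 and VPS33A, each time replicate 3 and each time as the highest. With the processed signal of the scanner software this was so in 0 of the 36. Over the array 7.20% of detected genes had an array apart, where chance gives about 5%, and replicate 3 was that array in 67.4% of them. The scanner's flag for an outlying local background was also set on 1916 spots of replicate 3, against 118 to 459 on the other arrays, but on only 1 spot of these 36 genes.

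Genes with a pair of probes were read probe by probe. In 10 genes at least 2 probes were well above background on all 4 arrays. On replicate 3 the brighter and the dimmer probe lay on opposite sides of their own means in 6 of them (ULK2, ATG7, ATG12, ATG16L1, ATG2A and WIPI2) and on the same side in 4 (ATG13, ATG5, ATG9A and ATG9B). After quantile normalization 6 genes were again split. In ATG16L1 the brighter probe was 0.31 above its mean on replicate 3 and the dimmer one lay at -0.46. In ATG2A the probes lay at 0.22 and -0.23, and in WIPI2 at -0.13 and 0.28. The dimmer WIPI2 probe on replicate 3 is the spot of these genes with an outlying local background, so that side of the WIPI2 pair rests on a marked spot. The gene values of ATG16L1, ATG2A and WIPI2, medians over their probes, therefore hide opposite moves on that array. ATG9A differs from them in that both its probes were low on replicate 3, at -0.33 for the brighter and -1.02 for the dimmer, and ATG5 in that both were high, at 0.35 each. ATG13 was low by both probes, at -0.11 and -0.35. The spread of the gene value alone does not show such a split.

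**Figure D3:**
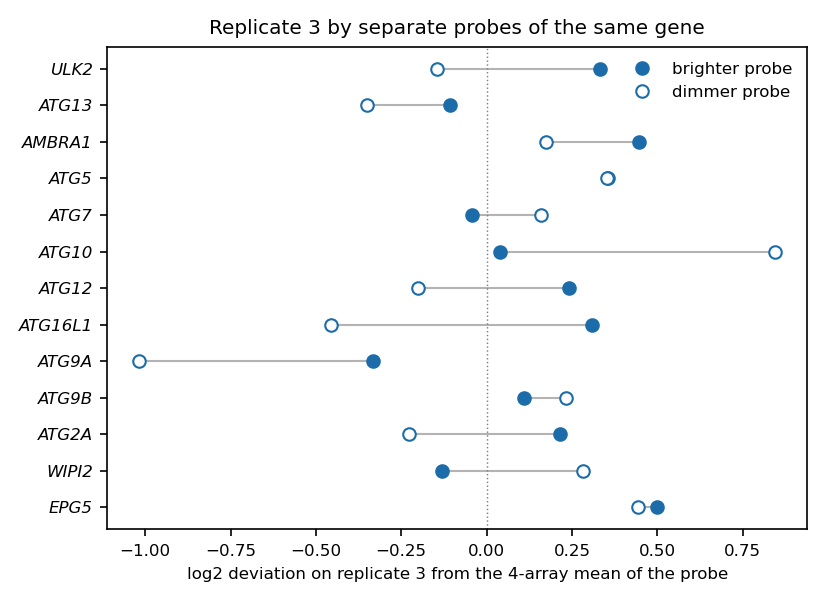
Deviation of replicate 3 from the 4-array mean of the probe (x axis, log2) for the brighter (filled) and dimmer (open) probe of the 13 genes with at least 2 measured probes (y axis). The pair lies across 0 in ULK2, ATG7, ATG12, ATG16L1, ATG2A and WIPI2, and wholly to the left in ATG13 and ATG9A.

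The content of G and C bases in the probes was set beside these deviations. The sequences of the 6 split pairs and of ATG9A, VPS11, VPS39 and VPS33A, which were far from their mean on replicate 3 are shown for that reason, as the first 30 of the 60 bases of each probe from the 5′ end, with G and C in capitals. Positions are those of the whole probe in GRCh37 from the files. Whether a probe lies in coding or untranslated sequence was not looked up here.
ULK2, brighter probe, chr17:19677582-19677641, minus strand: GtatattaaaGGtCttGGGGtaGatGGtGt
ULK2, dimmer probe, chr17:19674144-19674203, minus strand: aaaCtCCCaGtaaaaaaGaCttGGGaGaCa
ATG7, brighter probe, chr3:11468321-11468380, plus strand: aGGtGtttaattCttCaCattCCttCttaG
ATG7, dimmer probe, chr3:11598763-11598822, plus strand: ttGGCCCCaGCGtaCGaGGaaGCGtataaa
ATG12, brighter probe, chr5:115167373-115167432, minus strand: ttGatGCttGtGGCaaGaGaCttaaCaGat
ATG12, dimmer probe, chr5:115165841-115165900, minus strand: GtaGCtaaCCttatttGttttCtttCCtaa
ATG16L1, brighter probe, chr2:234203900-234203959, plus strand: aGCaGCGCCatCtttCCGtttCaGGGGttG
ATG16L1, dimmer probe, chr2:234202948-234203007, plus strand: tGtCaGtGtGGaCaaaGGatGCaaaGCtGt
ATG2A, brighter probe, chr11:64662048-64662107, minus strand: tGatatCCGtGtGGttCGatGtattatttt
ATG2A, dimmer probe, chr11:64662646-64662785, minus strand: aaGGCCtaCGaCaCaGtGCGaGaGGGCatC
WIPI2, brighter probe, chr7:5269265-5269324, plus strand: atGaGatCttGGaCtCtGCCtCtCaCGaCt
WIPI2, dimmer probe, chr7:5273021-5273080, plus strand: aGGGaCCCtGaaCCaaaCaGaaCGtGtGCt
ATG9A, brighter probe, chr2:220084776-220084835, minus strand: GataGaaGCtGCCaaGCaGGGaGaaCCtGt
ATG9A, dimmer probe, chr2:220086773-220086832, minus strand: CCtGGtGCtGtCaGaatatGCatCCaCaGa
VPS11, chr11:118949879-118949938, plus strand: CGtCatCaGGGaCtaCCtGGtCCaaaaaCt
VPS39, chr15:42451709-42451768, minus strand: GGCaaGaaCaGCaGGaCGCtGGtttaaaaa
VPS33A, chr12:122716817-122716876, minus strand: GGaGGtaCaGaatatGtCattGCCaCCaCt
Over the whole probe, G and C make up 45.0% in the ATG16L1, ATG2A and WIPI2 probes that were high on replicate 3 and 55.0% in the probes of the same genes that were low. In the other 3 split pairs the order was the reverse. The probe that was high on replicate 3 held 41.7% against 38.3% in ULK2, 45.0% against 38.3% in ATG7 and 36.7% against 35% in ATG12, with deviations of 0.33 and -0.15, 0.16 and -0.04, and 0.24 and -0.20. The shown stretch follows the whole probe in ATG2A, with 18 G and C in the dimmer and 10 in the brighter, but not in ATG16L1, with 14 and 17, or in WIPI2, with 16 and 15, where the remaining bases carry the difference. The ATG9A probes hold 60% and 51.7%, those of VPS11 and VPS39 50% each, and that of VPS33A 41.7%. The ATG2A dimmer probe covers 140 genomic bases with its 60, so its bases lie in separate stretches of the genome, as do those of probes of EPG5, PIK3R4 and VPS16.

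Over the 46 probes well above background, the mean deviation on replicate 3 was 0.23 for the 16 probes with under 40% G and C, 0.14 for the 20 between 40% and 50%, and -0.24 for the 10 at 50% or more. For all 25661 such probes of the array the means were 0.22, 0.06 and -0.08 in the same classes. Spearman's rho between GC content and deviation on replicate 3 was -0.50 over the 46 probes and -0.44 over all, and on replicate 1 it was 0.51 and 0.44. These are descriptions across probes that share the same 4 arrays, whose deviations sum to 0 for each probe. Single probes departed from this in every class. At 50% or more, 2 of 10 were above 0, VAMP8 and TECPR1, by 0.37 each. Under 40%, 13 of 16 were above 0, and those of ATG12, ULK2 and ATG7 named above were below it. Between 40% and 50%, 16 of 20 were above 0, and both ATG13 probes, at 45.0%, were below it. The part of base composition in the spread of these genes was not tested.

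**Figure D4:**
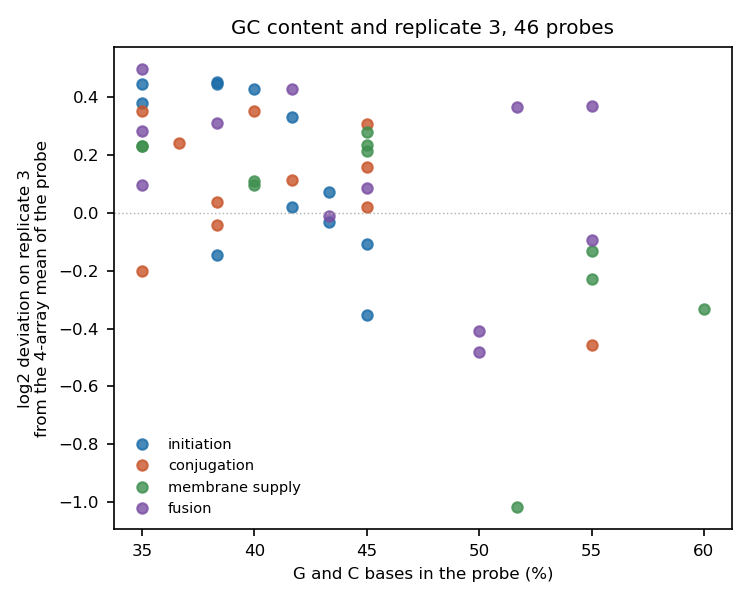
Deviation of replicate 3 from the 4-array mean of the probe (y axis, log2) against the percentage of G and C bases in the 60-base probe (x axis), for the 46 probes well above background, coloured by step. Most probes under 40% lie above 0, 8 of the 10 probes at 50% or more lie below it, and the VAMP8 and TECPR1 probes are the 2 above.

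The scanner software gives its own error for each spot, which can be read beside the spread between arrays. Over 49 probes with a value on every array, the median software error was 0.14 on the log2 scale and the median SD between arrays of the processed signal 0.20. The SD was above the error in 32 of the 49 probes. This count was not made over all probes of the array, so it cannot be called particular to these genes. In the other probes the spread between these libraries was no larger than the error the software assigned. That error was nearly constant over the brighter probes. For the ATG5 probe printed as 10 spots it was 0.14, below the SD of 0.23 of those spots within an array. The comparison therefore does not show how far single readings vary.

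Other genes of the pathway were read from lists written beside the 36. All 7 further initiation genes passed detection (median SD 0.23), and so did 4 of 5 further genes of membrane supply (0.20) and 16 of 17 of fusion (0.19). TRAPPC8, of the TRAPP complex, was above background on 0 arrays and RAB7B, a relative of RAB7A, on 1. Of the ATG8 family and the ATG4 proteases that process it, 10 of 11 genes were on the array and 8 passed (median SD 0.16). MAP1LC3C was above background on 0 arrays and MAP1LC3A on 3, while MAP1LC3B, the usual LC3 of autophagy assays, read 5.93 ± 0.19 (SD, n = 4) on the mean and GABARAP 7.36 ± 0.090 (SD, n = 4). All 11 cargo receptors passed (median SD 0.20), and SQSTM1, or p62, which binds ubiquitin and LC3, read 8.80 ± 0.23 (SD, n = 4). The spread of the 36 genes thus lay in the range of these neighbouring lists.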

How the data were processed

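Cy3-labelled cRNA of 4 bafilomycin A1 samples was hybridised to Agilent single-colour arrays. For each array the authors deposited the output of Agilent Feature Extraction 10.7.3.1, as given in the submitters' processing notes. The deposited signals are linear intensity values, background-subtracted by the software and not normalized between arrays. The deposited flags mark spots well above background, saturated or outlying, and are read as other marks, not as levels. Probe positions in the files are those of GRCh37.

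Control spots and spots marked as outlying features were left out. Spots of a probe were averaged, the signal was log2 transformed, and the median over non-control probes with signal above 0 was subtracted for each array. The gene value is the median over probes with a value on all 4 arrays. A probe was above background where more than 50% of its spots were. Levels of different probes are not compared. On the arrays, 55.6% to 60.4% of non-control spots were well above background and 14.8% to 17.4% of probes were at or below 0.

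No test was run, since 1 condition was analysed. SD, span and Dixon's ratio (critical value 0.829) were tested on simulated data. All 36 genes are named. Genes and lists were chosen with earlier results of these data known. Alternatives were the processed signal with the 75th percentile, normexp (offset 50) with quantile normalization, other centring, probe and spot filters, and each array left out. Leaving out spots with an outlying background was added after seeing the data. Python 3.11.15, pandas 2.3.3, SciPy 1.17.1 and limma 3.58.1 in R 4.3.3 were used.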

Additional observations from a re-analysis of the deposited data

Results flagged for a closer look

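Dixon's ratio set replicate 3 apart, as the highest array, in 3 of the 36 genes. ATG2B, a lipid transfer protein, read 2.13 on replicate 3 and 1.80 to 1.85 on the others. VAMP8, the lysosomal SNARE, read 9.01 on replicate 3 and 8.48 to 8.54 on the others. VPS33A, a HOPS subunit, read 3.99 on replicate 3 and 3.40 to 3.45 on the others. All 3 are read by 1 probe each, with 35%, 55% and 41.7% G and C. Chance flags about 5% of genes, 7.20% of all detected genes were flagged, and with the processed signal 0 of the 36 were.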

How the results depend on the processing

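All 36 genes counted as detected under every rule for detection except that which asked for all their probes, which left 32. With the processed signal and the 75th percentile the median SD was 0.18, 0 genes had an array apart, and the SD of the step mean was 0.076 in initiation, 0.076 in conjugation and 0.036 in fusion. With normexp and quantile normalization the median SD was 0.14, 4 genes spanned more than 1.4-fold, and the step SDs were 0.041, 0.048 and 0.033. With the median over all probes as centre the step SD of membrane supply was 0.038. Leaving out 1 array at a time gave a median SD of 0.155 to 0.229, 7 to 16 genes above 1.4-fold, and step SDs of 0.13 to 0.19 in initiation, 0.12 to 0.19 in conjugation, 0.028 to 0.11 in membrane supply and 0.067 to 0.15 in fusion. The lowest median SD and count came without replicate 3, while the lowest SD of the step mean in conjugation, membrane supply and fusion came without replicate 4. The mean level moved by more than its SD in 27 of 36 genes with normexp and in all 36 with the median over all probes as centre, which shifts every gene alike, and with the processed signal and the 75th percentile, which does not. It moved in 3 genes with only probes well above background, in 1 with each array's own probes, in 1 without spots of outlying background and in 0 otherwise. The causes were not tested. No paired analysis was possible because 1 group was analysed. Dim probes have the least certain values: the gene values of ATG9B, EPG5 and ATG10 were below the array median on at least 3 arrays. In EPG5 that value includes a probe above background on 0 arrays, and in ATG10 a probe not above it on replicate 4. With only probes well above background their means were 1.81 and 0.88, above the array median.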
